A study of Mus musculus with 4 samples.

Results

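Interferon-stimulated T cells of the mouse liver were selected on the unique molecular identifiers (UMIs, single counted molecules) of 7 genes in each cell. Barcodes were taken as cells from 500 UMIs and 250 genes upward, where mitochondrial genes held no more than 10% of the UMIs. It counted as a T cell with at least 2 UMIs of the CD3 chains Cd3e and Cd3g together, no UMI of the neutrophil gene Csf3r and at most 1 UMI of the B cell receptor chains Cd79a and Cd79b together. Members had at least 4 UMIs of Ifit1 and Ifit3 together, and 366 cells met the rule, of 32876 cells in all and 12739 T cells. They were compared with the 10661 T cells that had no UMI of Ifit1 or Ifit3, called Ifit-negative below; the other 1712 T cells had 1 to 3 such UMIs. Because Ifit1 and Ifit3 chose the cells, their levels are a description and were not tested. The other 5 gate genes were not tested either. Every count of a cell shares its library and depth, so the tests below describe which transcripts go with Ifit1 and Ifit3 in the same cells.

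The series profiled CD45+ immune cells sorted by flow cytometry from collagenase-digested livers, after a Percoll gradient, with a fixed-RNA probe kit in which pairs of probes report the transcripts of a mouse probe set. Each of the 4 libraries pooled 5 mice, and all mice had received tamoxifen for 1 week. The groups were GS(+/D)Hep (1 library, called GS_het here), URI(+/D)Hep (1 library, called URI_het) and WT (2 libraries), with the knockout genotypes also written +/delta. URI and glutamine synthetase are named in the series as the genes knocked out, and the labels give no age or sex of the mice and no promoter or recombinase behind the deletions. The labels do not say that the 2 WT libraries came from separate mice. In comparisons of T cell classes, p-values measure how the difference within a library varies over these 4 libraries. In comparisons of genotype they measure only the spread between the 2 WT libraries. Transcripts of Y-linked genes, given with the genotypes below, differed widely between the 2 WT libraries. The makeup of these pools thus differed, and the spread between them is not technical alone.

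Type I interferons bind the receptor chains IFNAR1 and IFNAR2, whose kinases JAK1 and TYK2 activate the factor ISGF3, a complex that holds STAT2 and IRF9. It binds interferon-stimulated response elements upstream of antiviral genes, while interferon gamma acts on gamma-activated sites, and the target sets of both overlap. In T cells the response raises antiviral effectors and antigen presentation, can limit division, and is held in check by USP18 and SOCS1.

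Members carried a median of 7 and at most 97 UMIs of Ifit1 and Ifit3. Both genes had a UMI in 299 members, Ifit3 alone in 57 and Ifit1 alone in 10. At the edge of the rule, 80 members had exactly 4 UMIs and 124 T cells outside had 3. In the order GS_het, URI_het, WT replicate 1 and WT replicate 2, which holds for every run of 4 values below, members numbered 87, 136, 115 and 28 and Ifit-negative T cells 3196, 2817, 3009 and 1639. Members were deeper, with medians of 6451, 7417, 5495 and 4553 UMIs per cell against 5059, 5831, 4454 and 3381 in Ifit-negative T cells. A deeper cell reaches 4 UMIs more readily, and the part of depth in the comparisons is given where matched cells were used. WT replicate 2 thus rests on 28 member cells and had the fewest UMIs per T cell. No whole barcode was shared between libraries. The first 16 bases of the barcode, which mark the droplet, were shared by 1480 to 2076 cells of each pair of libraries.

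Markers of T cells outside the gate were present in every library. They summed to 3508 to 6385 CPM (a gene's UMIs scaled by the sum of all UMIs of the class in that library) in members and 4398 to 6489 in Ifit-negative T cells, with WT replicate 2 lowest in both. Of these 6 markers, Cd3d, Trac, Trbc2 and Lck did not pass the test described below (log2 fold changes 0.13, 0.08, 0.06 and 0.14), and Cd247 and Cd5 were lower (-0.26 and -0.28). With reference cells matched on coreceptor class and depth, Cd247 and Cd5 did not pass (adjusted p = 0.380 and 0.169). The 6 markers of plasmacytoid dendritic cells summed to 653 to 993 CPM in members and 142 to 192 CPM in Ifit-negative T cells; Bst2, which is also an antiviral effector, was called higher (2.64), and Siglech had no UMI in members. The 6 markers of dendritic cells summed to 14.1 to 58.4 and 34.6 to 55.9 CPM, with Flt3, Xcr1 and Clec9a at 0 in members. Of 5 markers each, Kupffer cells had 3 at 0 in members, and platelets and basophils 4. A count of 0 in 366 cells allows a share of up to 0.820% of members with a UMI. Ifit-negative T cells had a Siglech UMI in 0.263% and none of Xcr1, so the zeros of these 2 genes show no difference between the classes. The 6 B cell markers summed to 4.23 to 30.1 CPM in members and 27.6 to 57.4 CPM in Ifit-negative T cells, and the 7 neutrophil markers to 119.8 to 324 and 194 to 465 CPM; within each library both sums were lower in members. The 8 monocyte markers summed to 698 to 988 and 393 to 576 CPM. Ly6c2, which T cells also express, and Ccr2 were higher in that list (1.31 and 0.73). Lyz2 was lower (-0.79), and Fcgr1 had no UMI. The 7 natural killer cell markers summed to 534 to 1098 CPM in members and 368 to 797 CPM in Ifit-negative T cells; Ncr1 and Klrb1c did not pass (0.14 and 0.29), Eomes and Klra4 were higher, and the gate does not part natural killer cells with CD3 transcripts from T cells. With matched cells Lyz2 and Klra4 did not pass (adjusted p = 0.0941 and 0.565). Scrublet, a caller of doublets, marked 5 of the 366 members; it marked no cell of WT replicate 1, where 3 members were among the highest scores taken in its place.

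The upstream sequences of the gate genes and of 3 of the strongest risers are shown because they hold, or lack, the element that ISGF3 binds. Sequences are the 250 bases before the RefSeq start of transcription (GRCm38.p6, the build the files call mm10), printed 5′ to 3′ in the sense of the gene. Capitals mark GAAANNGAAA on either strand, a plain form of the interferon-stimulated response element; overlapping matches were counted separately and merge into 1 run of capitals. The windows are Ifit1, chr19:34640639-34640888, plus strand; Ifit3, chr19:34583279-34583528, plus strand; Isg15, chr4:156200819-156201068, minus strand; Rsad2, chr12:26456453-26456702, minus strand; and Cmpk2, chr12:26468965-26469214, plus strand.
Ifit1: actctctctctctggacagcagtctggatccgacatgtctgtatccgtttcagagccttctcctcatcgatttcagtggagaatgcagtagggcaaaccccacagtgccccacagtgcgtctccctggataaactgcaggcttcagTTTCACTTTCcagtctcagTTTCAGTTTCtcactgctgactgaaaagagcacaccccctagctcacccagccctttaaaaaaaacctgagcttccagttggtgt
Ifit3: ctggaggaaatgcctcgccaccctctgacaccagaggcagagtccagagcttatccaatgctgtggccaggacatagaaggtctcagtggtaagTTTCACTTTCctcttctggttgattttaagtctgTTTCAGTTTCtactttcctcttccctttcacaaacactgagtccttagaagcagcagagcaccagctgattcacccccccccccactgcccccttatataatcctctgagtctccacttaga
Isg15: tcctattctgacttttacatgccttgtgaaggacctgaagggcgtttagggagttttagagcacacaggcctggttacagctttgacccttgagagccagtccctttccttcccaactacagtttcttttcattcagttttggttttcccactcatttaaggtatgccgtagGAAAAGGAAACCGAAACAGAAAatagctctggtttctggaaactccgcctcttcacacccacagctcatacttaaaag
Rsad2: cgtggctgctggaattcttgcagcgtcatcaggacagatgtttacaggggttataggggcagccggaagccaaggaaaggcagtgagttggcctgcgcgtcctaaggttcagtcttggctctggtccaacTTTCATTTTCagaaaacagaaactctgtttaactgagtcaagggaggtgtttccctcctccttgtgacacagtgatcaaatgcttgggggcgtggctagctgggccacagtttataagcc
Cmpk2: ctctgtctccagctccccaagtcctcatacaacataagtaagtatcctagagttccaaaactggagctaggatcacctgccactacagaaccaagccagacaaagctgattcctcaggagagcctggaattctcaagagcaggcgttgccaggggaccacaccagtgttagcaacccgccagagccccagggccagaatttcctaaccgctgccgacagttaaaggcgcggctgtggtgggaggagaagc
Ifit1 held 2 matches, starting 104 and 85 bases before the start, and Ifit3 held 2, at 156 and 122 bases. Isg15 held 3 overlapping matches from 78 to 66 bases before the start, and Rsad2 held 1 at 120 bases. Cmpk2, next to Rsad2 on chromosome 12 and read in the opposite direction, held none in this window although its level rose as described below.

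Interferon-stimulated cells were a small share of T cells in every library: 2.35, 3.82, 3.19 and 1.50%, with exact (Clopper-Pearson) 95% intervals of 1.89 to 2.89, 3.21 to 4.50, 2.64 to 3.81, 0.998 to 2.16%. The URI_het library had the highest share and WT replicate 2 the lowest. GS_het lay between the WT replicates, and URI_het lay above both, with an interval that overlapped that of WT replicate 1. With every T cell thinned to 1500 UMIs, a limit of 2 Ifit UMIs gave 2.07, 2.53, 2.82 and 1.39%, which placed WT replicate 1 above URI_het. Thinning left out 219, 170, 201 and 63 shallower T cells. With 1 library in each knockout group the share was not tested. Intervals cover counting error only.

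**Figure D1:**
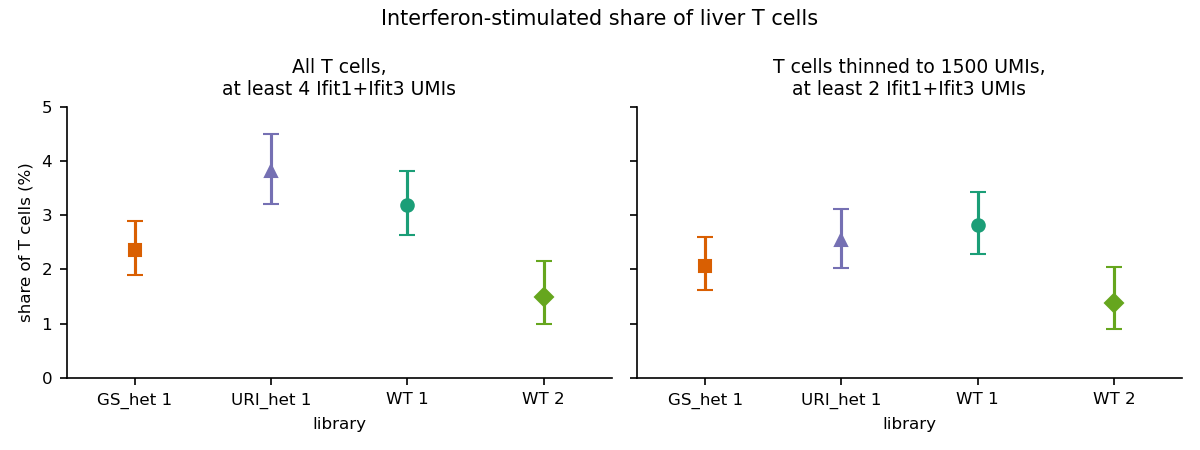
Share of T cells counted as interferon-stimulated (percent) in each library, as the rule gives it (left) and after thinning every T cell to 1500 UMIs with a limit of 2 Ifit UMIs (right); points are libraries and bars are exact 95% binomial intervals. WT replicate 2 is lowest in both panels, and URI_het and WT replicate 1 change places.

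Free RNA was measured in barcodes under 100 UMIs, where Ifit1 and Ifit3 made up 73.6, 88.3, 113 and 54.6 CPM. Were all RNA of a T cell of median depth free RNA, it would carry 0.380, 0.535, 0.517 and 0.189 Ifit UMIs. B cells, by the same UMI limits with at least 2 UMIs of Cd79a and Cd79b, reached 4 Ifit UMIs in 0.276, 0.632, 0.496 and 0.120% of cells, at median depths of 3728, 4214, 2850 and 2136 UMIs against 5165, 6065, 4567 and 3458 in T cells. Neutrophils with at least 2 Csf3r UMIs reached 4 in 2.41, 4.93, 7.54 and 2.74%. B cells were lowest in every library and neutrophils highest, although in GS_het the value of neutrophils was close to that of T cells. B cells can respond to interferon too, so their share is not a pure measure of free RNA. Shares of cells with at least 1 Ifit UMI were 13.6, 20.9, 16.6 and 12.3% of T cells and 2.76, 5.98, 4.34 and 2.04% of B cells.

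Within each library, members were set against Ifit-negative T cells by summing UMIs per class and testing the sums with edgeR's quasi-likelihood test, with the library as a block (10317 genes tested outside the gate). At a Benjamini-Hochberg adjusted p under 0.05, 652 genes (6.32%) were higher and 305 (2.96%) lower in members, of which 192 and 64 differed more than 2-fold. The median over all genes tested was -0.02 on the log2 scale. For 380 genes (3.68%) the lowest member library lay above the highest Ifit-negative one. The largest rises were mostly antiviral genes, and the largest falls were of genes at low levels. DESeq2 called 470 higher and 121 lower, a larger share of higher calls. Without the URI_het library 493 were higher and 180 lower, and against Ifit-negative cells matched on coreceptor class and depth 464 were higher and 105 lower.

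Isg15, a ubiquitin-like protein that is attached to other proteins, and Usp18, the protease that removes it and that blocks IFNAR2, name the cells together with the gate genes, so their levels are given as a description. Where a list below holds them, its count is given without them too. Isg15 stood at 1201, 908, 1139 and 1727 CPM in members and 48.4, 49.7, 44.8 and 71.0 CPM in Ifit-negative T cells. Usp18 stood at 405, 416, 537 and 649.6 and 18.6, 24.5, 25.5 and 17.7 CPM. For both genes every member library lay far above every Ifit-negative one. A UMI of Isg15 was found in 86.6% of members and 16.3% of Ifit-negative T cells, and of Usp18 in 73.0% and 8.33%. The gate genes stood at 535, 411, 630.0 and 420.3 (Ifit1) and 854, 885, 1030.2 and 1490.2 CPM (Ifit3) in members, and at 0 in the comparison by the rule.

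Among antiviral effectors, Rsad2 (viperin, which makes a chain-ending nucleotide) was 68.8-fold higher. Its level was 358, 287, 316 and 619 CPM in members and 3.97, 6.06, 5.56 and 7.36 CPM in Ifit-negative T cells (log2 fold change 6.11 ± 0.13 (SE), adjusted p = 9.59e-35). Cmpk2, a mitochondrial nucleotide kinase beside Rsad2 in the genome, stood at 252, 197, 282 and 596 against 11.2, 11.2, 16.7 and 12.2 CPM (log2 fold change 4.54 ± 0.14 (SE), adjusted p = 2.56e-28). In both genes WT replicate 2 had the highest member level and the groups did not overlap. The exonuclease Isg20 rose 14.0-fold, and the double-stranded RNA sensors of the OAS family included Oas2 (13.5-fold), Oasl1 (17.7-fold) and Oasl2 (16.1-fold). Ifit3b stood highest by fold (log2 6.30), but it is a near copy of the gate gene Ifit3, so its UMIs may not be separable from the rule. Of 41 antiviral effectors measured outside the gate, 38 were tested, 33 were higher (Isg15 among them) and 2 lower, with a median log2 fold change of 2.54 against -0.02 over all genes. Without Isg15 and Ifit3b, 31 of 36 were higher and 2 lower (median 2.38). The 2 that fell, Ifitm1 and Ifitm2, block virus entry at membranes; Ifitm2 stood at 3.16, 6.19, 2.82 and 0 CPM in members and 14.4, 13.7, 14.5 and 30.5 CPM in Ifit-negative T cells, while their relative Ifitm3 was higher (34.7, 53.9, 28.2 and 91.7 against 5.39, 9.36, 7.69 and 13.6 CPM). Neutrophils express both falling genes, and neutrophil marker sums were lower in members, as given above. In cells without a myeloid or B cell UMI, 0 of 36 effectors tested were lower, with 26, 21 and 52 members in GS_het, URI_het and WT replicate 1. That setting called 80 genes lower in all, against 305 in the main comparison, so a lost call there does not show that a fall was lost. With coreceptor class and depth matched 1 of 35 was lower, and with Ccl5 and transcripts of naive cells matched too 2 of 36. The part of neutrophil RNA in the 2 falls was not tested by itself.

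**Figure D2:**
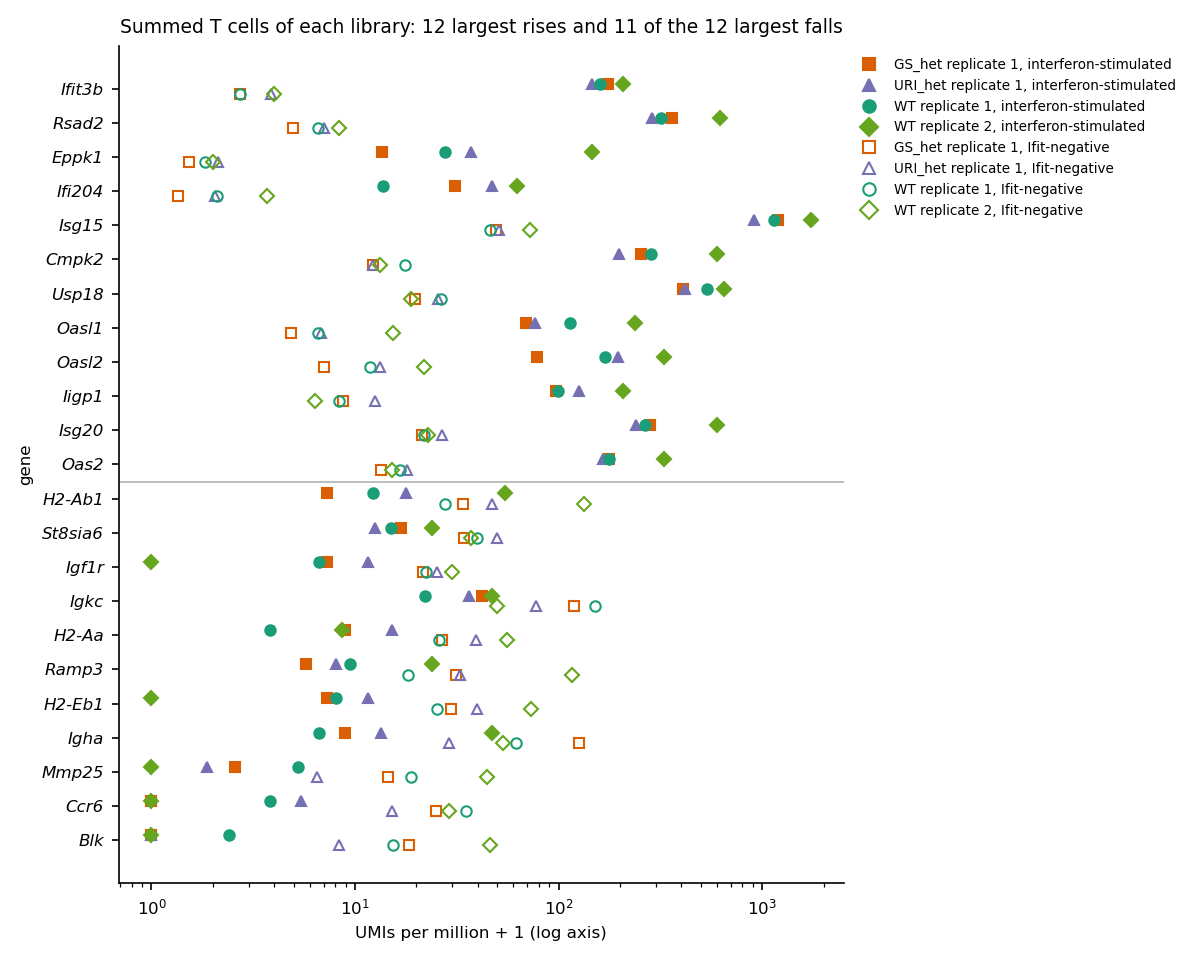
CPM plus 1 (log axis) of the 12 largest rises (top) and 11 of the 12 largest falls (bottom) in each library; filled symbols are interferon-stimulated and open symbols Ifit-negative T cells, 1 symbol per library. Rsad2 members sit between 287 and 619 CPM with Ifit-negative values of 3.97 to 7.36, and each falling gene lies lower in members in every library.

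Families with antiviral roles were higher nearly throughout. All 6 genes of ISG15 conjugation were higher (median 2.99; 2.11 for the 4 other than Isg15 and Usp18), including the ligases Herc6 (434, 346, 441 and 512 against 73.3, 69.9, 76.8 and 65.9 CPM) and Trim25. All 15 interferon-inducible GTPases tested, which attack the vacuoles of intracellular pathogens, were higher (median 2.28). Iigp1 led them at 96.2, 126, 98.7 and 206 against 7.70, 11.5, 7.34 and 5.36 CPM (log2 fold change 3.93 ± 0.21 (SE), adjusted p = 4.92e-20), and Gbp2, Igtp and Irgm1 had log2 fold changes of 2.51, 2.33 and 2.34. All 6 PARP and DTX3L genes, 6 of 7 Schlafen genes, 9 of 10 p200 genes and 7 of 10 nucleic acid sensors were higher as well. Examples are Parp12 (3.27), Slfn5 (3.66), the DNA-binding Ifi204 (5.07, with 40 members holding a UMI) and the RNA sensors Dhx58 (3.28) and Ifih1 (3.22). The inflammasome sensor Aim2 of the p200 family, the adaptors Mavs and Ticam1, Tmem173 (STING) and Slfn4 did not pass (log2 0.14, 0.34, 0.13, 0.13 and 0.11). Members of these families are close copies of each other, and the files do not state how probes separate them.

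Of the signalling chain, Stat2 and Irf9 of the ISGF3 complex were higher and the receptor chains did not pass. The receptor chains Ifnar1 and Ifnar2 had log2 fold changes of 0.08 and 0.24 and did not pass, nor did Jak1 and Tyk2 (0.04 and 0.25). Stat2 stood at 183, 164, 242 and 298 CPM in members and 44.6, 40.1, 38.6 and 37.2 CPM in Ifit-negative T cells (log2 fold change 2.43 ± 0.12 (SE), adjusted p = 2.11e-21), without overlap. Irf9 was higher by 1.29 on the log2 scale, and Jak2 and Stat3 by 0.73 and 0.55. Ifngr2, a chain of the interferon gamma receptor, was lower (-0.73, adjusted p = 0.00180), a call that matched cells (adjusted p = 0.103) and DESeq2 did not give. In all, 5 of 12 receptor and signalling genes were higher and 1 lower. Of 8 interferon regulatory factors, Irf7, which drives interferon genes, rose most: 689, 675, 744 and 1238 against 123, 126, 129.5 and 145 CPM (log2 fold change 2.68 ± 0.08 (SE), adjusted p = 1.16e-28). Irf1, Irf2 and Irf8 were higher by 0.65, 0.62 and 0.67, while Irf3 was at -0.08 and did not pass. Of 10 feedback inhibitors, 6 were higher, or 4 of 8 without Usp18 and Isg15; Socs1 stood at 393, 362, 352 and 1199.8 against 235, 205, 172 and 332 CPM, with WT replicate 2 far above the other libraries. Of 20 interferon ligand genes, Ifng had UMIs in members and the other 19 had none. In Ifit-negative T cells the 20 genes summed to 405.5, 403.6, 182.9 and 464.4 CPM. Ifng alone held 404.9, 403.1, 182.9 and 464.4 CPM of this, so the zeros of the 19 genes show no difference between the classes.

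Antigen presentation by MHC class I was raised broadly but by less. Of 19 genes tested, 18 were higher, with a median of 0.72; H2-T23 did not pass (0.42). The peptide loading chaperone Tapbp stood at 863, 850.3, 765 and 1582 against 439.6, 391, 374 and 528 CPM (log2 fold change 1.25 ± 0.08 (SE), adjusted p = 1.59e-17), and the immunoproteasome subunits Psmb8, Psmb9 and Psmb10 were higher by 1.05, 0.89 and 1.22. The heavy chains H2-D1 (0.30) and H2-K1 had the smallest called rises, H2-K1 at 3015, 3435, 2810.3 and 5181 against 2660.0, 2886, 2329 and 3902 CPM (log2 fold change 0.37 ± 0.07 (SE), adjusted p = 3.17e-05). B2m, the light chain, lay between 833 and 946 CPM in members and between 561 and 686 CPM in Ifit-negative T cells, without overlap. Interferon gamma targets were higher in 13 of 14 (median 1.46), and several stand in the lists above too. Among them the chemokine Cxcl10 stood at 133, 209, 178 and 199 against 16.2, 22.96, 5.42 and 17.9 CPM, with a UMI in 75 of 366 members, and the checkpoint ligand Cd274 (PD-L1) was higher by 1.77. The class II regulator Ciita, in the same list, did not pass (-1.34). Of 6 Ly6 surface genes 4 were higher, led by Ly6a (Sca-1) at 959, 729, 920.3 and 779.5 against 194, 247, 178 and 125 CPM.

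**Figure D3:**
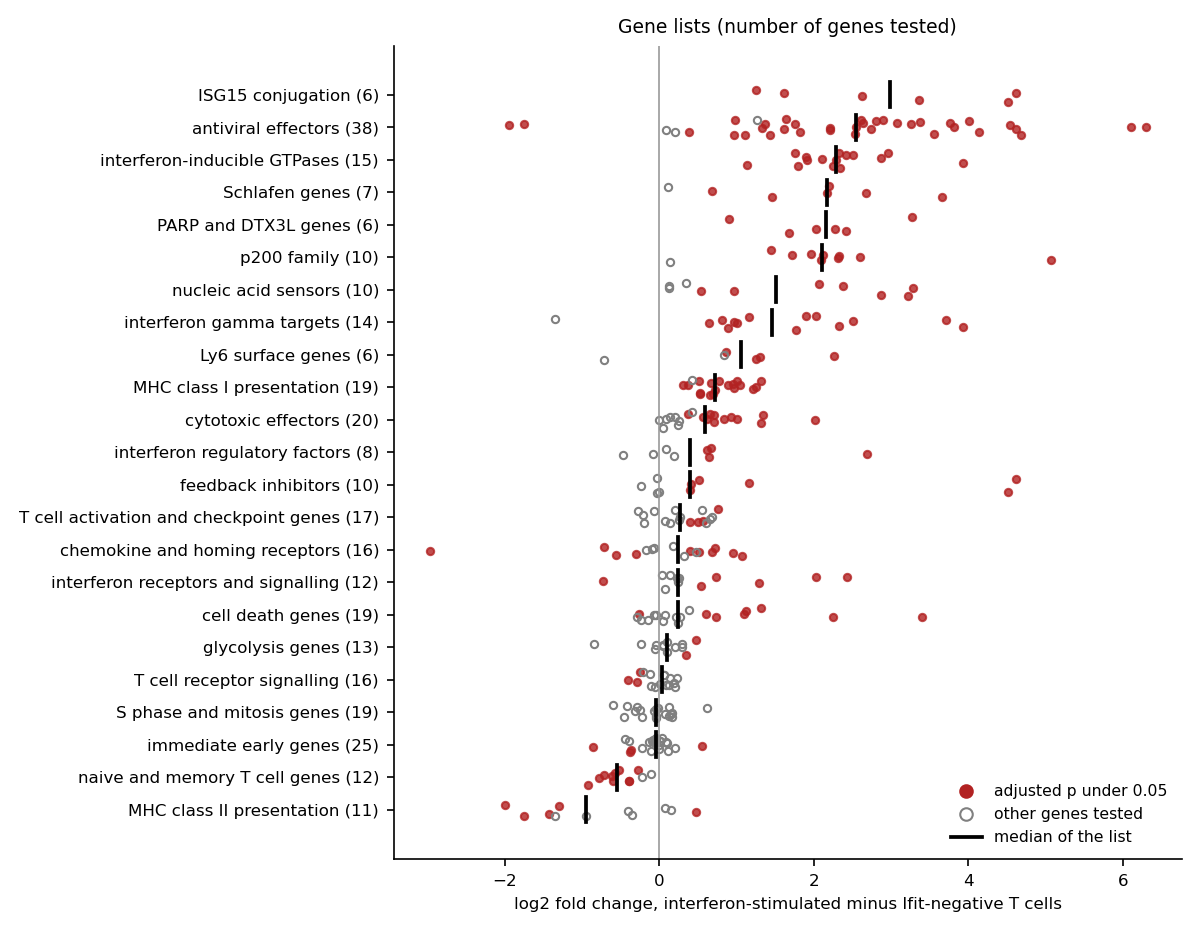
Log2 fold change of interferon-stimulated minus Ifit-negative T cells for each gene tested, by list with the number tested; red points passed an adjusted p under 0.05, open points did not, and black bars are list medians. ISG15 conjugation (median 2.99, Isg15 and Usp18 included) stands at the top, MHC class I presentation lies at 0.72, and the lists of naive T cell genes and MHC class II lie below 0.

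Effector genes were higher and genes of naive cells lower in members. Ccl5, a chemokine of effector and memory cells, had a UMI in 83.9, 74.3, 69.6 and 85.7% of members and 58.1, 54.2, 49.8 and 52.7% of Ifit-negative T cells. All 4 member shares lay above all 4 Ifit-negative ones. Deeper cells show a UMI more readily, and these shares were not compared at matched depth. The level of Ccl5 was higher by 0.71 on the log2 scale. With coreceptor class and depth matched it was higher by 0.42 (edgeR, adjusted p = 6.34e-04). Of 20 cytotoxic effectors 12 were higher (median 0.60). Gzmb, a granule protease that kills target cells, stood at 773, 1042, 612 and 1246 against 361, 329, 392 and 403 CPM (log2 fold change 1.34 ± 0.10 (SE), adjusted p = 2.35e-15), whereas Gzma and Prf1 did not pass (0.00 and 0.26). Tnfsf10 (TRAIL), a death ligand, was higher by 1.32. Ifng stood at 398, 833, 319.9 and 1353 against 405, 403, 183 and 464 CPM (log2 fold change 0.92 ± 0.11 (SE), adjusted p = 1.26e-08): the GS_het library showed no rise, and the other libraries did. Of 12 genes of naive and memory T cells, 10 were lower (median -0.55). The homing receptor Ccr7 stood at 233, 271, 348 and 245 against 441, 492, 605 and 538 CPM (log2 fold change -0.78 ± 0.08 (SE), adjusted p = 2.65e-10), and the transcription factor Lef1 at 473, 506, 672 and 283 against 758, 879.6, 917 and 694 CPM. Of 5 natural killer T cell markers, Zbtb16, Cxcr6, Il2rb and Tbx21 were higher, and the 5 summed to 2885 to 4104 CPM in members and 1900.2 to 2423 CPM in Ifit-negative T cells. Of 16 chemokine and homing receptors 6 were higher and 4 lower, with Cxcr6 higher by 0.95 and Cxcr3 by 0.68.

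The effector calls depended on which Ifit-negative cells were compared. When each member was set against 3 Ifit-negative cells of its own library, coreceptor class and UMI depth, and also of the same presence of Ccl5 and of transcripts of naive cells, 381 genes were higher and 66 lower. Then 4 of 20 cytotoxic effectors were higher and 1 lower (median 0.19), and 3 of 12 naive and memory genes were lower. Gzmb remained higher at 0.89 (adjusted p = 3.48e-09), and Ifng did not pass (0.36, adjusted p = 0.179). Natural killer T cell markers were higher in 2 of 5, and of 16 chemokine and homing receptors 2 were higher and 2 lower; Cxcr3 did not pass (0.17, adjusted p = 0.412). Of the interferon lists, 32 of 36 antiviral effectors tested (30 of 34 without Isg15 and Ifit3b, median 2.23), all 15 GTPases and 17 of 19 MHC class I genes were higher. Feedback inhibitors were higher in 4 of 10 (median 0.22 from 0.40) and interferon regulatory factors in 3 of 8 (median 0.12 from 0.40), with Irf8 not passing (adjusted p = 0.665). Because Ccl5 and transcripts of naive cells, among them Ccr7 and Lef1, set this matching, their own values in it are fixed in part.

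Cell death genes included several interferon targets: Daxx (2.24), the necroptosis executor Mlkl (3.40), Casp1 (1.10), Casp8 (0.74) and Bak1 (0.61) were higher in a list with 7 of 19 higher and 1 lower, the survival gene Bcl2 (-0.27). Activation and checkpoint genes were higher in 4 of 17 (Cd69, Il2ra, Icos and Entpd1), and Pdcd1, Lag3 and Tox did not pass (0.68, 0.55 and -0.07). With coreceptor class and depth matched, Il2ra and Entpd1 did not pass (adjusted p = 0.197 and 0.146), and with state matched too 1 of 15 was higher and 1 lower. T cell receptor signalling genes passed in 3 of 16, all lower (Cd4 -0.41, Cd5 -0.28 and Cd247 -0.26). These 3 calls were not given in either matched comparison (Cd4 adjusted p = 0.126 with class and depth matched) or by DESeq2, and without WT replicate 2 edgeR called 3 higher and 2 lower. Of 25 immediate early genes, which tissue digestion also induces, 1 was higher and 3 lower (median -0.05); Gadd45b rose (0.56) and Egr1, Egr3 and Nr4a1 fell (-0.38, -0.86 and -0.36), and in cells without stray myeloid or B cell UMIs Gadd45b stood at -0.014. With class and depth matched, Bcl2, Egr1 and Egr3 did not pass (adjusted p = 0.0605, 0.290 and 0.0981). With state matched too, edgeR called all 3 lower, at log2 -0.27, -0.31 and -1.26 (adjusted p = 0.0405, 0.0467 and 1.09e-04). With all 4 libraries and all Ifit-negative cells, none of 19 S phase and mitosis genes passed by edgeR or DESeq2. Of these, 4 had an unadjusted p under 0.05 by edgeR (lowest adjusted p, Stmn1, 0.0520). In alternatives edgeR called 1 lower with class and depth matched and 1 lower without WT replicate 2. It called 2 higher without WT replicate 1 and 2 lower in cells without myeloid or B cell UMIs. Glycolysis genes rose in 2 of 13, Hk1 (0.48) and Aldoa (0.34).

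A gene outside these lists stood among the largest rises. Eppk1, which encodes the cytoskeletal linker epiplakin (chr15:76101488-76120195 in GRCm38.p6), stood at 12.6, 36.2, 26.8 and 145 CPM in members and 0.533, 1.12, 0.824 and 1.00 CPM in Ifit-negative T cells (log2 fold change 5.47 ± 0.48 (SE), adjusted p = 9.96e-13). It was found in 33 members, 5, 13, 9 and 6 by library, and in 0.234% of Ifit-negative T cells. All member libraries lay above all Ifit-negative ones, and no single cell held more than 9 UMIs.

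The largest falls were of genes at low levels. Ccr6, a chemokine receptor that interleukin 17-producing T cells carry, stood at 0, 4.42, 2.82 and 0 CPM against 23.9, 14.2, 34.1 and 27.8 CPM (log2 fold change -2.97 ± 0.44 (SE), adjusted p = 1.11e-06). The kinase Blk, which B cells and some gamma-delta T cells express, had 1 UMI in members against 17.4, 7.36, 14.3 and 45.2 CPM (adjusted p = 1.11e-06), and the protease Mmp25 stood at 1.58, 0.884, 4.23 and 0 against 13.4, 5.47, 17.8 and 43.3 CPM. Il23r, the interleukin 23 receptor, had 1 UMI in members and a UMI in 1.60% of Ifit-negative T cells. Il17a, chosen after its values were seen, had no UMI in 366 members; the share of up to 0.820% that this allows is above the 0.507% found in Ifit-negative T cells, so a difference in cells with Il17a was not detectable. Of the 7 gamma-delta T cell markers, Il23r, Sox13 and Cd163l1 were lower (adjusted p = 6.33e-04, 0.0481 and 0.00965; Il23r and Sox13 with a UMI in 1 member each), Tcrg-C2 and Tcrg-C4 were higher (0.69 and 0.81), and Trdc did not pass (0.08). With coreceptor class and depth matched, 1 of 6 was higher and 1 lower; Cd163l1 and Tcrg-C2 did not pass (adjusted p = 0.281 and 0.0773), and with state matched too none of 5 was lower. Ccr6, Blk and Mmp25 were lower with class and depth matched (log2 -3.66, -4.45 and -2.57).

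Genes that antigen-presenting and antibody-making cells express at high levels were 5 of the 12 largest falls. The class II chains H2-Aa, H2-Ab1 and H2-Eb1 and the invariant chain Cd74 were lower, with log2 fold changes of -1.75, -1.43, -1.99 and -1.30. They were 4 of 11 genes of MHC class II presentation tested (median -0.94), and the protease Ctss was higher (0.47). H2-Eb1 stood at 6.31, 10.6, 7.05 and 0 CPM in members and 28.5, 38.6, 24.3 and 72.3 CPM in Ifit-negative T cells. The antibody chains Igha and Igkc were lower too (log2 -2.32 and -1.53), and in WT replicate 2 the values of Igkc nearly met (45.9 and 48.7 CPM). B cell marker sums were lower in members too, as given above, although none of the 6 B cell markers passed. The part of B cell RNA in these falls was not tested by itself. In cells without a myeloid or B cell UMI, which left 3 libraries with at least 10 members, 322 genes were higher and 80 lower. There 31 of 36 antiviral effectors tested were higher. No MHC class II gene passed, and the median of the 8 tested was -0.70, with 26, 21 and 52 members in GS_het, URI_het and WT replicate 1. With coreceptor class and depth matched 4 of 8 class II genes were lower, and with cell state matched too 4 of 8. The remaining falls named by rule were Ramp3 (-1.94), Igf1r (-1.50) and St8sia6 (-1.46); with matched cells Igf1r and St8sia6 did not pass (adjusted p = 0.174 and 0.0823).

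Levels of antiviral transcripts ran with the Ifit count across T cells. When T cells of all libraries were grouped by their Ifit1 and Ifit3 UMIs, cells with 0, 3, 4 and 16 or more stood at 50.3, 239.7, 386 and 2289 CPM of Isg15. The 41 antiviral effectors, without the gate genes, summed to 4301, 7681, 9503 and 21409.5 CPM in the same groups, and to 4248, 7409.7, 9055 and 18794 CPM without Isg15 and Ifit3b. Cells just outside the rule, with 3 UMIs, stood between Ifit-negative cells and members in both measures. B2m went through 617, 746, 821 and 1081 CPM over these groups, Gzmb through 364, 404, 457 and 1347 CPM and Lef1 through 832, 717, 618 and 369.7 CPM, so the antiviral genes spanned the widest range and Lef1 ran downwards. The top Gzmb value rests on URI_het: by library it was 944, 2204, 519 and 628 CPM, and 680.2 CPM without URI_het. In WT replicate 1 it lay below the cells with 3 and 4 UMIs (799 and 666 CPM). Groups of high Ifit counts hold few cells, 57 with 16 or more, of which 3 came from WT replicate 2, and their cells were deeper (medians of 4774, 6427, 6327 and 7441 UMIs). These values are descriptions with no test.

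**Figure D4:**
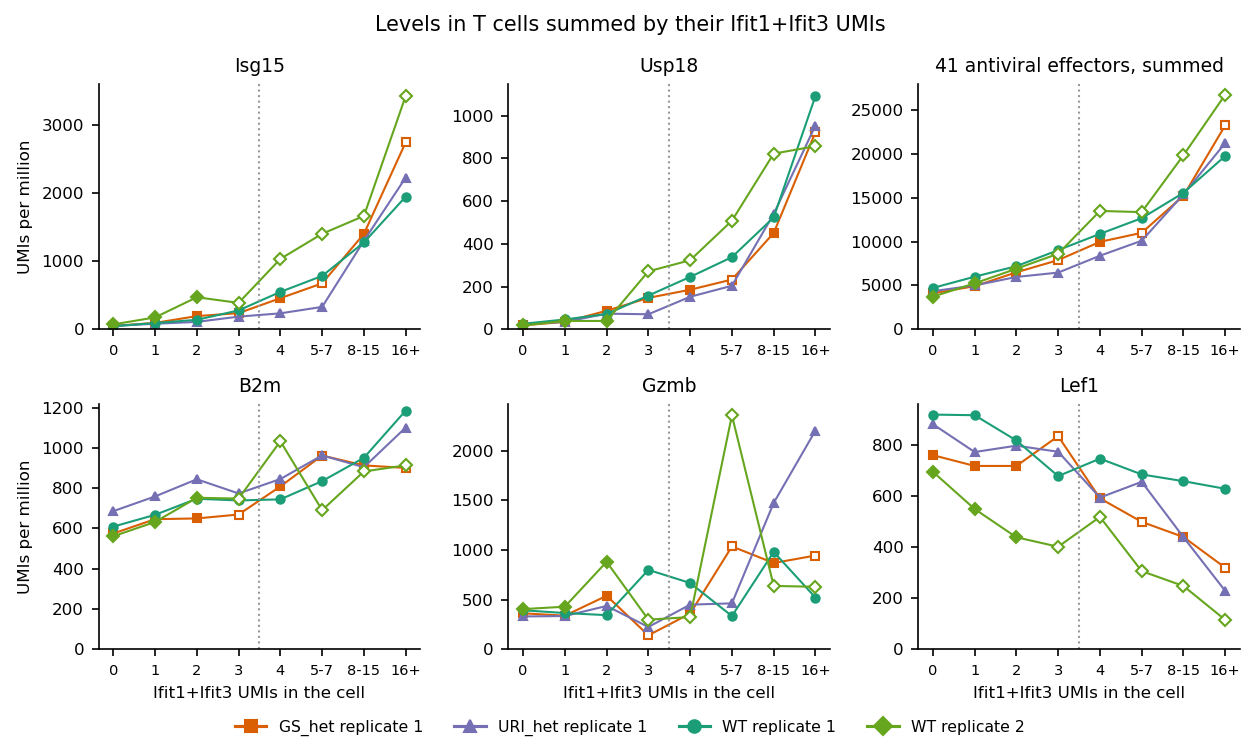
CPM of 5 genes and of 41 summed antiviral effectors in T cells summed by their Ifit1 and Ifit3 UMIs, 1 line per library; open symbols are sums of fewer than 20 cells, and the dotted line is the limit of the rule. Isg15, Usp18 and the summed effectors climb from left to right across the limit, B2m climbs less, Lef1 declines and Gzmb scatters between libraries.

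Single members expressed many effectors at once. After thinning each cell to 1500 UMIs, a member held UMIs of a median of 13, 11, 13 and 16 of the 41 effectors, against 6, 6, 6 and 6 in T cells with 1 to 3 Ifit UMIs and 4, 5, 5 and 4 in Ifit-negative T cells. At least 5 effectors were found in 96.6, 97.1, 98.2 and 100% of members and 46.6, 51.4, 58.6 and 39.4% of Ifit-negative T cells. WT replicate 2 had the highest member median and the lowest share among Ifit-negative cells. Without Isg15 and Ifit3b the member medians were 12, 10, 11 and 15.5 and the Ifit-negative ones 4, 5, 5 and 4. The list includes genes that resting T cells express, such as Samhd1 and Sp100.

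All T cell classes contributed members. By transcripts of the coreceptors, Foxp3 and Trdc, the 366 members were 129 Cd8 only, 96 Cd4 only, 56 with neither coreceptor, 53 with the gamma-delta constant gene Trdc, 23 with both coreceptors and 9 with the regulatory factor Foxp3. Against 3 depth-matched Ifit-negative cells per member, no class passed edgeR's test on cell counts (6 classes, adjusted p = 0.921 to 0.927, and none at an unadjusted p under 0.05). Log2 ratios lay between -0.41 (Foxp3) and 0.37 (neither). Cells with neither coreceptor, 0.37 ± 0.30 (SE), made up 21.8, 11.0, 7.83 and 46.4% of members. In the depth-matched Ifit-negative cells they made up 10.7, 10.0, 12.5 and 22.6%. WT replicate 2 was highest in both, with 13 of 28 members, and in WT replicate 1 members lay below the matched cells. Isg15 in members with neither coreceptor stood at 1836, 1294, 2344 and 2275 CPM, in Cd4 only members at 2054, 1195, 1298 and 2777 and in Cd8 only members at 783, 649.9, 1019 and 601 CPM. Cd8 only members were lowest of these 3 classes in Isg15 in every library, a difference that was not tested and rests on as few as 5 cells. The same order held in Ifit-negative T cells of every library, so it is not particular to members. There Isg15 stood at 38.1, 46.3, 36.7 and 59.7 CPM in Cd8 only cells. Cd4 only cells held 47.6, 51.8, 51.0 and 71.0 CPM, and cells with neither coreceptor 64.8, 61.8, 72.5 and 95.8 CPM. Usp18 in members did not share this order, at 423, 430, 691 and 558 CPM in Cd8 only and 582, 391, 434 and 714 CPM in Cd4 only members. Over all libraries, Isg15 stood at 781 CPM in Cd8 only members. Members with both coreceptors (588) and with Foxp3 (712) lay lower, and those with Trdc (1034) higher. Among T cells with a Ccl5 UMI the share of members was 3.31, 4.97, 4.29 and 2.34%, and among those without 0.937, 2.28, 2.00 and 0.474%.

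Motif matches were more common upstream of genes that rose more. Promoter windows of 300 bases (250 before and 50 after the RefSeq start) were found for 8268 of the 10317 genes tested. GAAANNGAAA on either strand was found in 55.6% of the 63 genes higher by more than 4-fold, 34.6% of the 153 higher by more than 2-fold and 9.58% of the 355 higher by 2-fold or less. It was found in 4.20% of the 238 lower genes, 3.83% of all genes tested and 3.44% of all 32851 windows. The gamma-activated site TTCNNNGAA reads the same on both strands, and its matches may overlap those of the first motif. It was found in 17.5%, 13.7%, 11.3% and 9.24% of the same 4 sets and 8.42% of all genes tested. By list, all 9 interferon-inducible GTPases with a window and 7 of 9 p200 genes held GAAANNGAAA, against 5 of 16 MHC class I genes and none of 9 naive and memory genes. Of the 12 largest rises, 7 had a window and 3 of these a match. A match is a string of letters, and where none was found, sites further away were not searched.

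**Figure D5:**
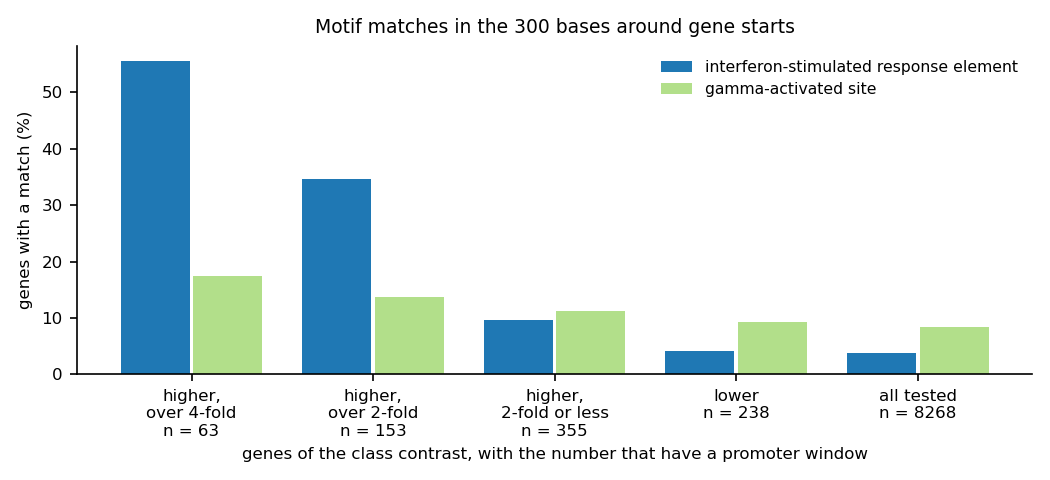
Share of genes (percent) with a match of the interferon-stimulated response element or the gamma-activated site in the 300 bases around the start, for genes higher, lower or tested in members against Ifit-negative T cells; n is the number of genes with a promoter window. The response element runs from 55.6% of genes higher by over 4-fold to 3.83% of all genes tested.

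Genotype was compared within members. Uri1 itself stood at 96.2, 102, 109 and 107 CPM in members and Glul, which encodes glutamine synthetase, at 45.8, 76.9, 52.1 and 68.8 CPM; the genotype labels carry the mark Hep and these cells were sorted as CD45+, so the levels were not taken as a check of the labels. With 1 library per knockout and 2 of WT, the spread came from the WT pair alone (1 residual degree of freedom), and each knockout was assumed to vary like WT. By edgeR's quasi-likelihood test over 8629 genes, 3 genes (0.0348%) were higher in GS_het and none (0%) lower, and 78 had an unadjusted p under 0.05. In URI_het 2 genes (0.0232%) were higher and none (0%) lower, and 42 had an unadjusted p under 0.05. DESeq2 called none in either contrast (13 and 6 genes at an unadjusted p under 0.05). In simulated counts of this design, 0% of genes changed 2-fold, 18.8% (GS_het) and 19.7% (URI_het) of those changed 4-fold and 61.9% and 58.7% of those changed 8-fold were recovered, so most changes of 4-fold or less would be missed. The simulation made 3 false calls for GS_het, as many as the genes called here, and 0 for URI_het.

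The calls were not of interferon genes. Eif2s3y, a gene of the Y chromosome, stood at 110.4, 139.7, 2.82 and 38.2 CPM in members (GS_het minus WT 3.41 ± 0.70, SE, adjusted p = 0.00482; URI_het minus WT 3.75 ± 0.68, adjusted p = 3.25e-04, edgeR). Uty, also on the Y chromosome, stood at 34.7, 51.3, 1.41 and 0 CPM and passed in URI_het (adjusted p = 0.0456); without the GS_het library it did not, and 1 gene was left. Summed over 4 Y-linked genes, Ifit-negative T cells of the same libraries held 204, 480.1, 8.44 and 265 CPM, so WT replicate 1 was near 0 and the WT pools differed among themselves. Mki67 and Top2a, genes of dividing cells, passed in GS_het (log2 5.22 and 3.84, adjusted p = 5.31e-04 and 0.0252). Mki67 had 60, 39, 2 and 0 UMIs in members. A single cell held 55 of the 60 UMIs of GS_het, and for Top2a a single cell held 51 of 61. In Ifit-negative T cells edgeR called no gene in either contrast, with 32 genes at an unadjusted p under 0.05 in each.

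Interferon genes were tested the same way. Over the 34 antiviral effectors tested, the median log2 fold change was -0.27 in GS_het and -0.35 in URI_het, against -0.00158 and -0.00832 over all genes. None of the 34 passed, and 2 and 3 had an unadjusted p under 0.05. MHC class I genes had medians of -0.14 and -0.10. Both contrasts share the WT libraries, and WT replicate 2, with 28 members, stood highest in Isg15, Rsad2 and Irf7 (values above). With members taken from 2 Ifit UMIs upward, Cd74, H2-Aa, H2-Ab1 and H2-Eb1 were lower in GS_het and in URI_het than in WT (log2 -4.41 to -2.92 and -3.35 to -2.65). At that limit 3 genes were higher in URI_het by edgeR, Eif2s3y, Uty and the histone gene Hist1h1b (log2 4.66, adjusted p = 8.31e-05), and none in GS_het. The 2 WT libraries did not agree on Cd74. It stood at 39.4, 74.2, 39.5 and 260 CPM in members with at least 4 Ifit UMIs. T cells with 1 to 3 Ifit UMIs held 229, 120, 75.5 and 916 CPM. In both, WT replicate 2 was highest and WT replicate 1 lay below URI_het. In Ifit-negative T cells Cd74 stood at 131, 201, 108 and 509 CPM, highest in WT replicate 2 too.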

How the data were processed

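Per the labels, CD45+ liver cells of pools of 5 mice were profiled with a fixed-RNA probe kit. Per the submitters' processing notes, Cell Ranger 8.0.0 was used with mm10. The deposited matrices hold raw UMI counts for all barcodes, 24041049 to 51920505 UMIs per library. The members and all gene lists were chosen with earlier results of these data known. Cells were kept at 500 UMIs, 250 genes and 10% mitochondrial UMIs, which left 7846, 9096, 8481 and 7453 cells. Deprecated probes (59), which held 0.0649% of the UMIs of cells, were left out of the tests. Doublets were marked with Scrublet (scanpy 1.11.5) and kept, with removal as an alternative; in WT replicate 1, where Scrublet marked 0 cells, the highest scores at the mean share of the other libraries were taken. UMI counts were summed per library and class and tested with edgeR 4.0.16 in R 4.3.3 (TMM, filterByExpr, glmQLFTest, Benjamini-Hochberg); DESeq2 1.42.0 was an alternative. Standard errors were derived from the fold change and its F statistic. Classes needed at least 10 cells. Counts of lists without Isg15, Usp18 and Ifit3b were added after seeing the data. In simulated counts of the class comparison (10323 genes), 82.8%, 88.1% and 98.5% of genes changed 2-, 4- and 8-fold were recovered. Named genes were the 12 largest rises and 12 largest falls with at least 20 CPM that moved one way in every library, and up to 4 members of each list by adjusted p; other list members named were chosen after their values were seen. A planned comparison with B cells was not run, because 1 library had 10 interferon-stimulated B cells. Some genes that passed these rules are not reported here.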

Additional observations from a re-analysis of the deposited data

How the results depend on the processing

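In the comparison of interferon-stimulated with Ifit-negative T cells, leaving out 1 library at a time gave 493 to 688 genes higher and 180 to 349 lower, the fewest without URI_het. DESeq2 called 121 lower. Without the library as a block, 277 genes were higher and 31 lower, all of them called with it; both classes come from every library, so the block pairs them. With reference cells matched on coreceptor class and depth 105 were lower, and with cell state matched too, chosen after seeing the data, 381 and 66. In cells without myeloid or B cell UMIs 322 and 80 were called. Of single genes, Stmn1 turned to 0.20 at a limit of 8 Ifit UMIs and Gadd45b to -0.014 in cells without myeloid or B cell UMIs; the cause was not tested.

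Shares of T cells at a limit of 2 UMIs were 5.25, 9.23, 7.12 and 4.39%, at a limit of 8 UMIs 1.22, 1.74, 1.47 and 0.749%, and after thinning with a limit of 4 UMIs 0.517, 0.825, 0.821 and 0.499%, in the order used above; thinning with a limit of 2 UMIs moved URI_het to 2.53%. Removing doublets or asking for 4 CD3 UMIs moved each share by less than its interval. For the coreceptor classes, the log2 ratio of Trdc ran from -0.34 to 0.23 (the latter without GS_het) as libraries were left out, and no alternative passed.

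For GS_het against WT, 0 genes were higher by DESeq2, 0 at a limit of 2 Ifit UMIs with 4 lower, and 0 in Ifit-negative T cells, where Mki67 stood at -0.032. For URI_het, 1 was higher without GS_het, 0 by DESeq2, 1 without the filter on low counts, 1 with doublets removed and 0 in Ifit-negative T cells, and 3 were higher and 4 lower at a limit of 2 Ifit UMIs. The test in Ifit-negative T cells was chosen after seeing the data. Leaving out a WT library gave values with no test. No paired analysis was possible because the genotype groups share 1 replicate number. With 28 members, WT replicate 2 limits every comparison.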

Other observations

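The 1712 T cells with 1 to 3 Ifit UMIs belonged to neither class of the main comparison. In the order GS_het, URI_het, WT replicate 1 and WT replicate 2 they stood at 121, 96.6, 121 and 254 CPM of Isg15 and 17.4, 14.0, 21.2 and 41.2 CPM of Rsad2, between Ifit-negative T cells and members in every library. Irf7 stood at 203, 218, 261 and 388 CPM in them. Lef1, at 722, 777, 868 and 512 CPM, lay below its Ifit-negative and above its member level in each library. These values were not tested; cells with 2 or 3 UMIs counted as members at the limit of 2 Ifit UMIs.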
